A study of Danio rerio with 12 samples.

Results

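The complement cascade is a set of blood and tissue proteins that tag cells and debris for removal and can end in a pore, the membrane attack complex, inserted into a target membrane. In mammals, its early components include C1q and C4, its terminal components include C7, and host cells carry inhibitors such as CD59 that block pore assembly. Ceruloplasmin and AMBP are best known in mammals as proteins secreted by liver into plasma, and both are also made in other tissues.

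The genes described here are c7b (a zebrafish gene for terminal component C7), c4 (component C4), cd59a (a CD59 gene), cp (ceruloplasmin, a copper-carrying enzyme that oxidises iron) and ambp (the precursor of alpha-1-microglobulin and of the protease inhibitor bikunin). They were chosen by gene symbol, as every probe set that the platform annotation gives to 1 of these 5 symbols and no other. This gave 5 probe sets, 1 per gene, of 15502 on the array once manufacturer controls were left out.

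The study profiled total RNA of adult zebrafish on 12 Affymetrix arrays, and the values are scaled signal intensities in arbitrary units. There were 5 lesioned retinas and 5 control retinas, with 1 array of each at 2, 3, 5, 7 and 14 days post-lesion, 1 retina that the submitters called a true control, and 1 brain, labelled a control. The submitters' design text gives matched animals, at least 8 for each condition. The strain, the age, the lesion method and how many fish went onto each array could not be told from the sources at hand. No group is a mutant and no treatment other than the lesion is named. The 5 control arrays and the true control are called the 6 unlesioned retinas below.

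The labelled tissues carried their markers. The summed signal of 6 photoreceptor genes was 658.2 in brain, against 91069.8 to 103618.3 in the unlesioned retinas, and that of 6 brain genes was 56289.3 in brain, against 6739.7 to 10364.7. The arrays lay in 2 blocks that stood apart in their hybridization controls, and both arrays of a day lay in the same block. Block 1 (brain, true control, days 2 and 14) had a GAPDH 5'/3' signal ratio of 0.6925 to 0.8542, and block 2 (days 3, 5 and 7) had a ratio of 0.1031 to 0.2451. A low ratio means that less signal came from the 5' end of that transcript. Each day, and brain, has 1 array, so the p-values below measure the spread between arrays, which may in part be technical.

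Of the 5 genes, c7b rose in lesioned retina. Its signal was 2478, 680, 654.9, 306.6 and 235.8 in the lesioned retinas of days 2, 3, 5, 7 and 14, against 145.3, 36.9, 57.3, 65.4 and 131.7 in the control retinas of the same days. The true control retina was at 94.2. All 5 lesioned arrays lay above all 6 unlesioned retinas, and the lesioned arrays descended with day. Between days 2 and 3 the array block also changed and the control fell too, from 145.3 to 36.9. In the signal itself, day and block cannot be told apart at that step. The plain lesioned signal, with nothing added, was 17.1, 11.4, 4.69 and 1.79 times that of the control on days 2, 5, 7 and 14. On day 3 the control lay under the lower quartile of its array (41.1), so no fold is given.

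Differences were tested on log2(signal + 50), where the added 50 shrinks changes of dim genes. On that scale the matched difference of c7b, lesioned minus control, was 3.69, 3.07, 2.72, 1.63 and 0.65 on days 2, 3, 5, 7 and 14, and averaged 2.35 ± 1.21 (SD, n = 5 pairs). With the day as a block, limma gave 2.35 ± 0.31 (SE; 95% interval 1.70 to 3.01; adjusted p = 0.000669), with 5 of 5 days higher, as in 9.32% of all probe sets tested. Here limma draws the variance of a probe set toward that of other probe sets of like signal. The SE of 0.31 and its p-value thus do not rest on the spread of the 5 c7b pairs alone. The SD of 1.21 also holds the change over days. The exact two-sided sign-flip permutation p was 0.0625, the smallest that 5 pairs allow. In this comparison 3.56% of the 9301 probe sets tested were called higher and 0.538% lower, 4.10% in all. For 0.763% of them, every lesioned array lay above every control array. Among all 15502 probe sets c7b held the rank 4, 3, 2, 22 and 252 from the highest lesion ratio on days 2, 3, 5, 7 and 14.

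The call of c7b has limits. Its control mean of 87.3 lay under the level of 114 used to leave out dim probe sets, so it was tested through its lesioned mean of 871.1. Without that filter the limma adjusted p was 0.00325. With each array's GAPDH ratio as a covariate it was 1.99 ± 0.49 (adjusted p = 0.179), and with the 2 pairs of array block 1 alone 2.17 ± 0.57 (adjusted p = 0.428).

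**Figure D1:**
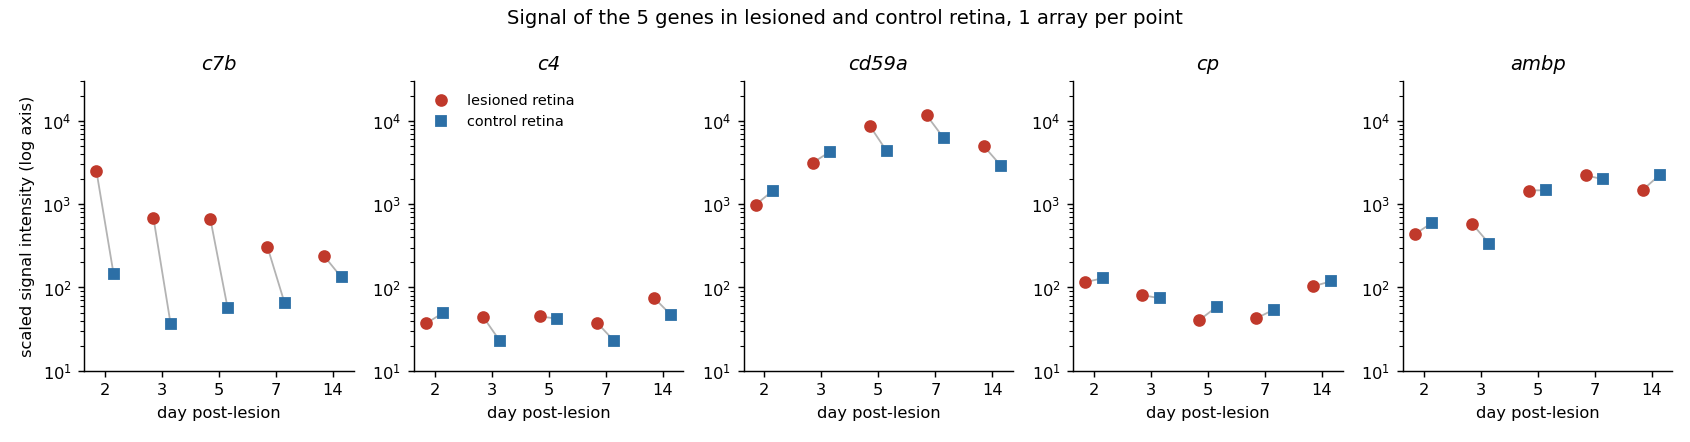
Scaled signal (log axis) of c7b, c4, cd59a, cp and ambp at each day post-lesion, with 1 array per point, lesioned retina left of control retina, and a line joining the arrays of a day. The lesioned c7b arrays run from 235.8 to 2478 and the control c7b arrays from 36.9 to 145.3, while cd59a and ambp move with day in both groups.

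The course of c7b over the days was then tested. Each day's lesioned array was set against the same 6 unlesioned retinas, with the array block as a term. These 5 comparisons thus share their controls, whose mean c7b signal of 88.5 was dim. Neither these comparisons nor the trend below were repeated without the filter on dim probe sets. The difference was 3.87 ± 0.26 (SE) on day 2, where limma called 0.237% of the probe sets (adjusted p = 0.000762). It was 2.83 ± 0.27 on day 3, with 0.108% called (adjusted p = 0.00885), and 2.78 ± 0.27 on day 5, with 0.086% called (adjusted p = 0.011). The later arrays did not pass.

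On day 7 the difference was 1.80 ± 0.27, with 0.0538% called (limma adjusted p = 0.0617), and on day 14 it was 0.73 ± 0.27, with none called by limma (adjusted p = 1; 241 probe sets had an unadjusted p under 0.05). The matched difference of c7b fell by 1.09 ± 0.12 (SE) for each doubling of the day (limma adjusted p = 0.00151). This trend was called in 0.108% of probe sets, and c7b was 1 of 10 called, all of them downward. Without day 14 the slope was -1.04 ± 0.21 and was not called (limma adjusted p = 0.102). The trend was fitted with 50 added and with no other added value. As in the lesion test, c7b passed the filter there through its lesioned mean. On the plain signal, the c7b ratio of day 3, with its dim control, was not lower than that of day 2. The calls of days 3 and 5 were lost without the control array of day 5 (adjusted p = 0.09 and 0.0775).

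**Figure D2:**
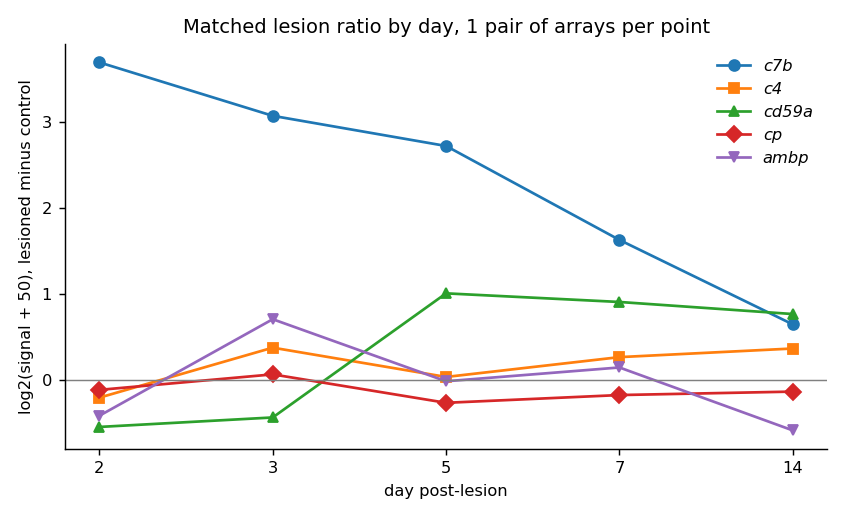
Matched difference in log2(signal + 50), lesioned minus control, of the 5 genes at each day post-lesion, with 1 pair of arrays per point. On this scale c7b descends, with 3.69 on day 2 and 0.65 on day 14. cd59a is below 0 on days 2 and 3 and above 0 on days 5, 7 and 14.

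The genes socs3a, mvp and tuba5 were nearest to c7b in their 5 matched differences, by Euclidean distance among 6877 probe sets of other genes. The distance was 1.20 for socs3a, an inhibitor of cytokine signalling, 1.42 for mvp, the major vault protein, and 1.62 for tuba5, an alpha-tubulin. Their differences on days 2, 3, 5, 7 and 14 were 3.44, 2.94, 1.88, 0.81 and 0.55 for socs3a, and 3.44, 2.09, 2.09, 1.61 and 1.43 for mvp. For tuba5 they were 3.15, 1.86, 1.96, 1.1 and 0.81. No probe set of another gene lay within a distance of 1 of c7b, against 20 probe sets for cd59a and 1606 for ambp.

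The inhibitor gene cd59a was bright in every array and was not called after lesion. Its signal was 984.8, 3145.7, 8702.3, 11590.6 and 4973 in the lesioned retinas of days 2, 3, 5, 7 and 14, against 1454.3, 4247.5, 4290.2, 6162.9 and 2901 in the control retinas. The true control retina was at 1967.9. The lesioned array was below its control on days 2 and 3 and above it on days 5, 7 and 14, and the groups overlapped.

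The matched difference of cd59a was -0.54, -0.43, 1.01, 0.91 and 0.77 on the log2 scale, with a mean of 0.34 ± 0.76 (SD, n = 5 pairs). The block fit gave 0.34 ± 0.20 (SE; 95% interval -0.09 to 0.77; limma adjusted p = 0.404; exact sign-flip permutation p = 0.375). Its slope was 0.56 ± 0.15 per doubling of the day, with an unadjusted p of 0.00176 that did not pass adjustment (limma adjusted p = 0.436). Set against the 6 unlesioned retinas it was not called on any day, with 1.26 ± 0.36 on day 7 (limma adjusted p = 0.348) and 1.27 ± 0.36 on day 14 (adjusted p = 1). The genes nearest to it were lrrn1 at a distance of 0.70, cd9b at 0.71 and enc3 at 0.73.

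The levels of cd59a and ambp varied between days in both groups. The SD over the 5 days of the mean log2 level of a pair was 1.05 for cd59a and 1.0 for ambp, against a median of 0.34 over all probe sets tested. It was 0.72 for c7b, 0.38 for cp and 0.18 for c4. The arrays of a pair also differed. The SD of the matched difference was 0.76 for cd59a and 0.51 for ambp, against a median of 0.24 over all probe sets tested. Day and array block are partly the same split, and their parts in the spread over days were not tested.

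The plasma protein gene ambp lay above the lower quartile of the array in each retina and was not called after lesion. Its signal was 437.5, 580.6, 1457, 2207.6 and 1497.5 in the lesioned retinas of days 2, 3, 5, 7 and 14, against 599.5, 335.6, 1470, 1987.8 and 2264.4 in the control retinas. The true control retina was at 764. The lesioned array was higher on days 3 and 7 and lower on days 2, 5 and 14. The matched difference was -0.41, 0.71, -0.01, 0.15 and -0.58, and the block fit gave -0.03 ± 0.15 (SE; 95% interval -0.35 to 0.29; limma adjusted p = 0.943; exact sign-flip permutation p = 0.9375). The genes nearest to it were pvalb7, polh and prkacbb.

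Markers of pigment cells and of blood also varied between days, not all in the order of ambp. The pigment cell gene dct, which encodes a melanin synthesis enzyme, was at 333.9, 405.4, 1385.4, 1778.6 and 1659.8 in the lesioned retinas of days 2, 3, 5, 7 and 14, against 352.1, 274.5, 1247.5, 1259.8 and 1842.8 in the control retinas. As with ambp, both arrays of days 2 and 3 were the low ones, and so they were for the melanosome gene pmelb. The retinoid enzyme gene rpe65a did not share this order, with 9686.2 in lesioned and 4833.8 in control retina on day 3, above the 2632 and 3125.8 of day 14. The pigment enzyme gene tyr was dim, at 15.3 to 70.1 in lesioned and 19.7 to 77.5 in control retinas. The summed signal of 4 pigment epithelium and pigment cell markers was 3569.7 to 25222.8 in lesioned and 2175.5 to 22649.3 in control retinas. That of 5 erythrocyte markers was 2818.7 to 20511.9 in lesioned and 873.1 to 11639.6 in control retinas. In lesioned retina, hbaa1 was higher on day 3 (5157.6) than on day 14 (3723.8), where ambp was lower on day 3. In control retina, hbaa1 was lower on day 3 (849.6) than on day 14 (6428.8), as ambp was. The alpha-globin gene hbaa1 and dct were chosen for plotting after their values were seen, and the part of these cells in the ambp signal was not tested. In bulk tissue, fewer cells of a type and less RNA per cell cannot be told apart.

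**Figure D3:**
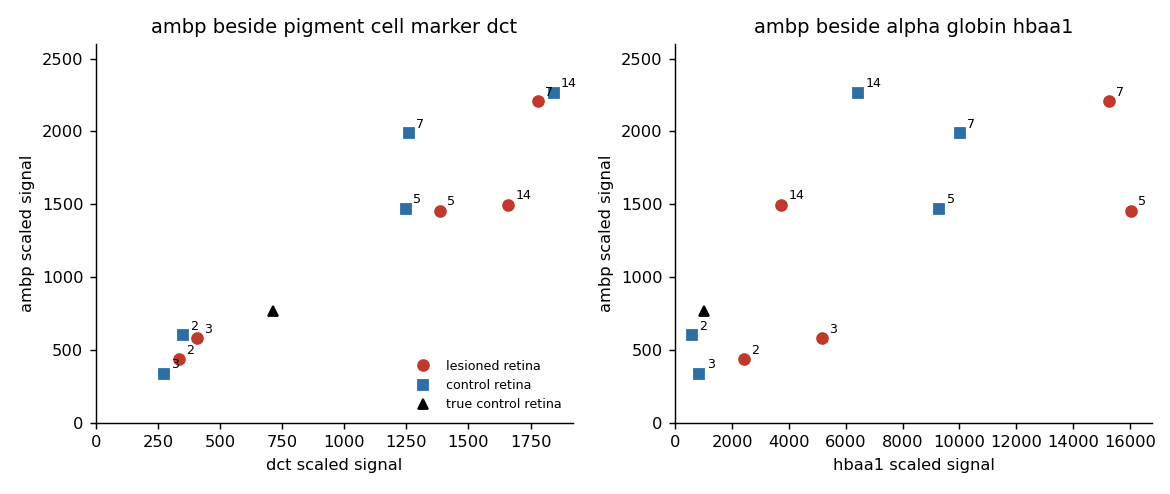
Scaled signal of ambp against that of the pigment cell gene dct (left) and of the alpha-globin gene hbaa1 (right) in 11 retina arrays, with the day post-lesion printed beside lesioned and control points. The 4 arrays of days 2 and 3 lie at the lower left of the dct panel, with ambp between 335.6 and 599.5.

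The genes c4 and cp were dim in retina, with group means below the level of 114, and were left out of the filtered limma test for the lesion. The c4 signal was 37, 44.4, 44.9, 37.6 and 74.9 in the lesioned retinas of days 2, 3, 5, 7 and 14, against 49.8, 22.5, 42.2, 22.8 and 46.5 in the control retinas, with 30.2 in the true control. It lay under the lower quartile of its array in 3 of 5 lesioned and 5 of 6 unlesioned retinas. The matched difference of c4 averaged 0.17 ± 0.25 (SD, n = 5 pairs; exact sign-flip permutation p = 0.1875). Without the filter, limma gave 0.17 ± 0.13 (SE, adjusted p = 0.614).

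The cp signal was 115.9, 80.9, 40.7, 42.7 and 103.6 in the lesioned retinas, against 129, 74.3, 58.4, 54 and 118.1 in the control retinas of the same days, with 140 in the true control. Its matched difference averaged -0.12 ± 0.12 (SD, n = 5 pairs; exact sign-flip permutation p = 0.125), lower on 4 of 5 days. For cp the unfiltered limma fit gave -0.12 ± 0.12 (SE, adjusted p = 0.735). Neither c4 nor cp was separated between the groups.

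Of the genes listed as the complement cascade, 14 were on the array, 3 were bright enough to test and 2 rose after lesion, with a median change of 1.12 over these 3, against -0.01 over all probe sets tested. Over all 14 in the unfiltered fit the median was 0.11, against 0.01, and 2 were called. Besides c7b, the gene that rose was c1qc, a chain of the pattern-binding C1q complex. Its signal was 247, 194.9, 410.6, 270.9 and 154.8 in the lesioned retinas of days 2, 3, 5, 7 and 14, against 88, 39.1, 119, 66.6 and 139.1 in the control retinas. The change was 1.12 ± 0.18 (SE; limma adjusted p = 0.00237). Like c7b it passed the filter through its lesioned mean, with a control mean of 90.4, and without the filter its adjusted p was 0.009. The protease gene cfd, which starts the alternative pathway, had 0.50 ± 0.16 and was not called (limma adjusted p = 0.0972). The other terminal component genes on the array were too dim for this test. Without the filter, c6.2 had 0.54 ± 0.13 (SE, limma adjusted p = 0.0536) and was not called. Nor were c8b (-0.02 ± 0.15), c8g (-0.21 ± 0.12) and c9 (-0.24 ± 0.16). These terminal genes were named after their values were seen.

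Of 7 complement regulators and receptors on the array, 5 were tested and 1 rose, with a median of 0.14. It was cfp, which encodes properdin, a stabiliser of the alternative pathway convertase and so not an inhibitor (0.72 ± 0.13 SE; limma adjusted p = 0.0045). Its matched difference was 0.72, 1.13, 0.76, 0.74 and 0.26 on days 2, 3, 5, 7 and 14. The 3 inhibitor genes named next were tested and not called. The protease gene cfi, whose product cleaves C3b and C4b, had -0.01 ± 0.11 (limma adjusted p = 0.983). Clusterin (clu) had 0.14 ± 0.09 (adjusted p = 0.49), and the vitronectin gene vtnb had -0.02 ± 0.10 (adjusted p = 0.955); both proteins bind terminal complement complexes in mammals. The C1 inhibitor gene serping1 was too dim for this test, and without the filter it had 0.57 ± 0.15 (unadjusted p = 0.00276; adjusted p = 0.0919).

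Plasma and acute phase protein genes were mostly too dim to test, with 3 of 29 tested and none called by limma (1 with an unadjusted p under 0.05, rbp4l). The median was -0.03. The retinol carrier gene rbp4 had -0.04 ± 0.12 (limma adjusted p = 0.909) and its relative rbp4l 0.19 ± 0.08 (adjusted p = 0.232). Without the filter, limma called 1.87% of 15502 probe sets and the kininogen gene kng1 among these genes (0.96 ± 0.20 SE; adjusted p = 0.0288). Its signal was 94.6, 146.2, 156.1, 81.3 and 19.3 in the lesioned retinas, against 42.7, 12.5, 29, 11.3 and 17.9 in the control retinas. Of the complement genes, c4b, a gene of the same family as c4, had matched differences of 1.12, 0.89, 1.31, 0.70 and -0.60, and was not called in that fit. Both kng1 and c4b were chosen after their values were seen.

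Of 11 iron and copper genes, 7 were tested, 1 rose and 1 fell, with a median of 0.03. The ferritin heavy chain-like genes moved apart, with fthl27 higher (0.70 ± 0.13 SE; limma adjusted p = 0.00718) and fthl30 lower (-0.56 ± 0.11; adjusted p = 0.0111) in lesioned retina. The superoxide dismutase gene sod1 had -0.22 ± 0.10 (adjusted p = 0.259) and the copper importer slc31a1 0.11 ± 0.11 (adjusted p = 0.682).

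Leukocyte markers as a set were also higher in lesioned retina, and whether they moved with c7b, c1qc or cfp over the days was not tested. Of 11 markers on the array, 9 were tested, 6 rose and none fell, with a median change of 0.93. The markers ptprc, lcp1 and marco passed the filter through their lesioned means. Without the filter 6 of 11 markers were called higher, with a median of 0.85. The smallest p-values were those of grna, ptprc, coro1a and laptm5. Their median matched difference was 1.13, 1.0, 1.01, 0.87 and 0.22 on days 2, 3, 5, 7 and 14, and their summed signal was 2723.2 to 8348.4 in lesioned and 1806.6 to 3865.1 in control retinas. No marker was at 0. The marker cd74a, which was not called, held 333.1 to 5505.3 of that sum in lesioned and 1102.3 to 2758.9 in control retinas. Of 8 tested Müller glia markers 4 rose (3 of 9 without the filter), as did 1 of 2 endothelium markers (plvapb, not called without the filter, adjusted p = 0.0551) and 1 of 3 pigment cell markers (pmelb), while 1 of 6 photoreceptor markers fell. None of 3 tested erythrocyte markers was called by limma (hbaa1 1.01 ± 0.32, adjusted p = 0.0902), though all 3 had an unadjusted p under 0.05. The part of these cells in the complement signals was not tested. Liver markers were too dim to test, with a summed signal of 169.3 to 255.8 in lesioned and 134.6 to 229.2 in control retinas.

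**Figure D4:**
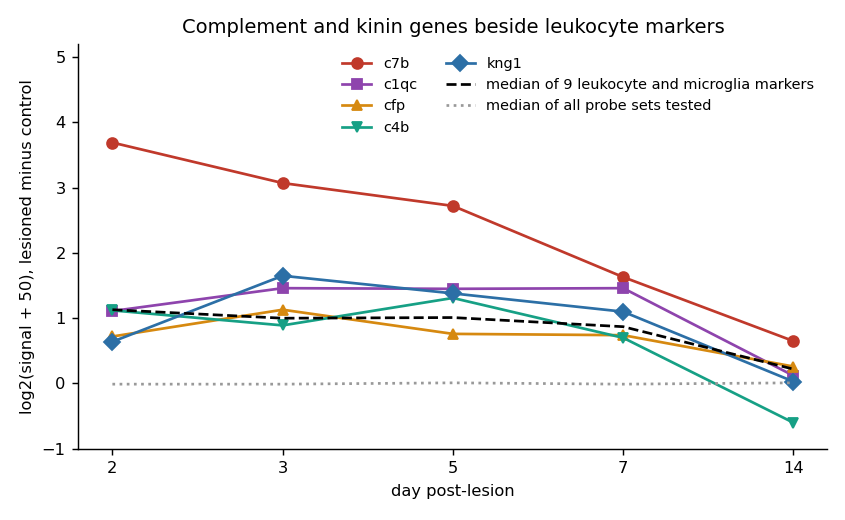
Matched difference in log2(signal + 50), lesioned minus control, of c7b, c1qc, cfp, c4b and kng1 at each day post-lesion, with the median of 9 leukocyte and microglia markers and of all probe sets tested. c7b is at 3.69 on day 2 and the marker median at 1.13, and on day 14 they are at 0.65 and 0.22.

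Brain differed from unlesioned retina in all 5 genes, in 1 brain array against 6 retina arrays and with the array block as a term. The genes c7b, c4, cd59a and cp were higher in brain and ambp was lower. In this comparison limma called 24.3% of 9301 probe sets, 14.1% as higher and 10.3% as lower, so a call is common. Brain lay above all 6 retinas for 32.7% of probe sets and below them for 20.8%. The brain array is assumed to vary like the retinas. The retina means of c7b, c4 and cp and the brain signal of ambp lay under the level of 139.8 used to leave out dim probe sets, so these 4 were tested through the tissue where they are high, but the unfiltered fit called the same 5 genes among 14.9% of 15502 probe sets.

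The ferroxidase gene cp had a signal of 2592.5 in brain, against 95.6 ± 37.8 in the unlesioned retinas (SD, n = 6; lowest 54, highest 140). Its difference was 3.89 ± 0.21 (SE; limma adjusted p = 1.81e-06), and the plain signal was 27.1 times that of the retinas, or 20.1 times that of the 3 retinas of its own array block. The gene cd59a was at 16220 in brain, against 3504.0 ± 1741.6 in retina (SD, n = 6; lowest 1454.3, highest 6162.9), with a difference of 2.97 ± 0.36 (SE; adjusted p = 0.000321). The highest lesioned retina, at 11590.6 on day 7, was also below brain.

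The gene c4 was at 267.9 in brain, against 35.7 ± 12.1 in retina (SD, n = 6; lowest 22.5, highest 49.8), with a difference of 1.79 ± 0.26 (SE; limma adjusted p = 0.000932). The gene c7b was at 294.8 in brain, against 88.5 ± 43.1 in retina (SD, n = 6), with a difference of 1.0 ± 0.26 (SE; adjusted p = 0.0222). Brain c7b lay above the lesioned retina of day 14 (235.8) and below those of days 2, 3, 5 and 7. Without the true control retina the c7b difference was 0.87 ± 0.28 and was not called (limma adjusted p = 0.0583). Without the block term it was 1.38 ± 0.47 (adjusted p = 0.107), and that of cd59a was 2.35 ± 0.68 (adjusted p = 0.0651).

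The gene ambp was at 49.4 in brain, under the lower quartile of that array, against 1236.9 ± 789.5 in the unlesioned retinas (SD, n = 6; lowest 335.6, highest 2264.4). No fold is given, since the brain value lay under that quartile. The difference, brain minus retina, was -3.43 ± 0.89 (SE; limma adjusted p = 0.021), and with 200 added in place of 50 it was not called (-2.31 ± 0.77; adjusted p = 0.0547). The summed pigment marker signal was 509.9 in brain, against 2175.5 to 22649.3 in unlesioned retinas, and its part in the ambp difference was not tested.

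**Figure D5:**
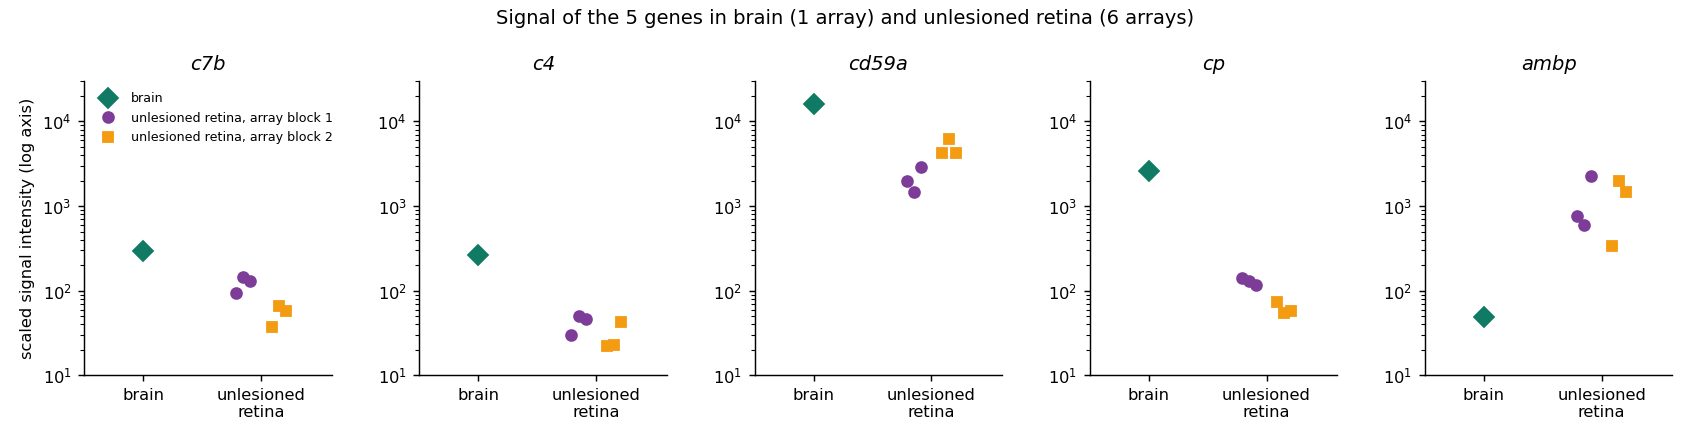
Scaled signal (log axis) of the 5 genes in brain (1 array, left) and in the 6 unlesioned retinas (right, 1 point per array, marked by array block). Brain lies above all 6 retinas for c7b, c4, cd59a and cp, and below them for ambp, at 49.4 against 335.6 to 2264.4.

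Related genes split between the tissues. Of the complement cascade genes too dim for the brain test, c4b (1.01 ± 0.23 SE) and c8g (0.70 ± 0.17) were also higher in brain in the unfiltered fit. The c8g signal lay under the lower quartile of the brain array. The rest of these dim genes lay between -0.10 and 0.41. Over all 14 complement cascade genes in the unfiltered fit the median was 0.37, against 0.07 over all probe sets. The 4 tested had a median of 1.05, against 0.06 over all probe sets tested. Of these 4, c4 and c7b are the genes described above and passed the filter through brain. Their values here are thus no separate result about related genes. The others, cfd (1.09 ± 0.60 SE; limma adjusted p = 0.238) and c1qc (0.73 ± 0.35; adjusted p = 0.173), were not called. Of 5 tested regulators 1 was called higher, cd59a, and 2 lower, with a median of -0.17. The lower ones were cfi, at 277.4 in brain against 994 ± 227 in retina (SD, n = 6; -1.40 ± 0.26 SE; adjusted p = 0.0037), and vtnb, at 209.8 against 506 ± 145 (-1.36 ± 0.24; adjusted p = 0.00308).

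Over 5 tested plasma protein genes the median difference was 0.51. Of these, cp and ambp passed the filter through the tissue where they are high. Over all 29 in the unfiltered fit the median was 0.11, against 0.07 over all probe sets, so the list as a whole was near the rest. The 2 retinol carrier genes lay in opposite directions. The signal of rbp4 was 8864.1 in brain, against 402 ± 137 in retina (SD, n = 6; 4.50 ± 0.39 SE; limma adjusted p = 3.53e-05), and that of rbp4l was 364.2 in brain, against 33300 ± 12500 in retina (-5.74 ± 0.20; adjusted p = 7.65e-08). Of 10 tested iron and copper genes 3 were higher (cp, fthl28 and fthl27) and 1 lower (fthl30), with a median of 0.17. The difference was 2.61 ± 0.24 (SE) for fthl28, 0.99 ± 0.27 for fthl27 and -2.85 ± 0.42 for fthl30. The fthl28 signal was 470.9 in brain, against 27.8 to 44.8 in the unlesioned retinas. Like cp, fthl28 thus passed the filter through brain.

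Cell type markers in brain were read beside these. The summed signal of 11 leukocyte markers was 8158.5 in brain, against 1806.6 to 3865.1 in unlesioned retinas. The marker cd74a alone held 6105.7 of that sum in brain, against 1102.3 to 2758.9 in unlesioned retinas. Over all 11 in the unfiltered fit the median difference was 0.76, against 0.07 over all probe sets, and csf1ra, mpx and lyz lay below 0. The summed liver marker signal was 280.6 in brain, against 134.6 to 237.9, and 3 of its 5 genes lay under the brain array's lower quartile. No liver marker was tested, and the part of these cells in the brain differences was not tested.

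The true control retina was compared with the 5 control retinas, to ask whether the controls labelled with a day post-lesion differ from it. The probe sets of cd59a and ambp were tested and not called by limma, which called 0.043% of probe sets (312 had an unadjusted p under 0.05). The difference was -0.06 ± 0.40 (SE; 95% interval -0.96 to 0.84; adjusted p = 1) for cd59a and -0.59 ± 0.92 (95% interval -2.67 to 1.48; adjusted p = 1) for ambp. The c7b signal of the true control, 94.2, lay within the 36.9 to 145.3 of the control retinas.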

How the data were processed

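The authors deposited 1 signal intensity per probe set and array, on a linear scale, made with the Affymetrix software GCOS (per the submitters' processing notes, with no version or settings). The deposited intensities of every array had a mean of 500.1 after the lowest and highest 2% of probe sets were left out. No detection calls were used here. Of 15617 probe sets, 115 manufacturer controls were left out. The platform annotation gave 1 symbol to 10795 probe sets.

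Values were taken as log2(signal + 50). In each comparison the dimmest 40% of probe sets, ranked on the average of both group means, stayed out of the test, which left 9301, and limma 3.58.1 in R 4.3.3 (lmFit, eBayes with an intensity trend) was fitted to the whole table, with Benjamini-Hochberg adjustment and a threshold of 0.05. The fits were tested on simulated data. The lesion fit had the day as a block. The fits of single arrays (each day, brain, true control) had the array block as a term, found from the largest gap in mean hybridization control signal, and the single array was assumed to vary like the retinas. The trend was fitted to the matched differences on log2 of the day. A gene with several probe sets was represented by the brightest. All tests are two-sided.

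The pairing by day comes from the design text and the titles. The 2 arrays of each day deviated together from their group means (r = 0.758 to 0.9 over probe sets, and 0.323 to 0.679 within array blocks). This cannot test the pairing, since arrays of a day share a block and no mismatched pairs were set beside them. Block 1 held only days 2 and 14 of these pairs, so their within-block value is the same, 0.557.

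The 5 genes, the gene lists and the markers were chosen with earlier results of these data known. Named were the 5 genes; list genes that passed the lesion or brain test, or up to 4 with the smallest p in lists where fewer passed; the 3 nearest genes of c7b, cd59a and ambp; and up to 4 genes per marker list. The nearest genes of the dim c4 and cp are not described, since 4511 and 5577 probe sets of other genes lay within a distance of 1. For the lesion and brain tests, alternatives were 2 other added values, no filter, quantile normalization, no intensity trend, no block and single array blocks. Each pair (lesion) or each unlesioned array (brain) was also left out. The lesion test also had the GAPDH ratio as a covariate. The fits of single days had only no block term and each unlesioned array left out. The trend had only the GAPDH ratio and each pair left out, and the true control only no block term. Sequences and coordinates are not used here.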

Additional observations from a re-analysis of the deposited data

Results flagged for a closer look

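In groups of 5 arrays, the gap between the farthest array and its neighbour was set against the whole range of the group (Dixon's 95% critical value, 0.71). This was done for the 5 genes in lesioned and in control retinas, 10 groups in all, of which 2 passed. It used the plain signal, not the log scale of the other tests, and was not repeated on the log scale. Chance passes about 1 group in 20 only where values are normally distributed, which was not tested. The plain scale stretches high values, so a pass cannot tell a distant array from a skewed scale. On the plain signal, the c7b value of 2478 in the lesioned retina of day 2 stood apart, with a gap of 0.802 of the range. The plain c4 signal of 74.9 in the lesioned retina of day 14 stood apart, with a gap of 0.792 of the range. At that level c4 is near the lower quartile of most arrays. The lesioned arrays are different days, so a distant array is also a distant time. The lesion change of c7b differed between days, with a slope of -1.09 per doubling of the day (limma adjusted p = 0.00151; higher in lesioned retina on 5 of 5 days).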

How the results depend on the processing

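For lesioned against control retina, c7b was the 1 gene of the 5 called, and its change was 1.58 to 2.78 over 14 alternatives, called in 11 of them (limma adjusted p 1.04e-07 to 0.428). The number called was 0 with no replicate block for the day (c7b 2.35, adjusted p = 0.427), 0 with the pairs of array block 1 only and 0 with the GAPDH ratio as a covariate. The block by day is the pairing of the design. The ambp change (-0.03) was 0.28 with the pairs of array block 2 only, and -0.21 to 0.11 with 1 pair left out. In the trend, the number called was 0 to 1 with 1 pair left out, where ambp had slopes of -0.54 to 0.14. Against the unlesioned retinas, c7b was called on 3 days, on 1 day with no array block term (day 2; day 3, 2.46, adjusted p = 0.441; day 5, 2.41, adjusted p = 0.371) and on 1 to 3 days with 1 unlesioned array left out. With no array block term, cd59a on day 3 was 0.01, against -0.61. The ambp value of day 5 was -0.22 to 0.98 with 1 unlesioned array left out. In brain, 5 genes were called and 3 with no array block term; cp and c4 were called in all 13 alternatives. Except where values are given, the cause was not tested. Of all values of single genes under the alternatives, those given here included, 214 kept direction and side of the threshold, 12 kept direction and were no longer called, and 6 turned direction. Many of these values belong to results not called in the main fit, which had no call to lose. The 214 are thus no measure of how firm the calls are. With 1 array for each day and tissue, precision is set by the number of arrays. In retina, c4 and cp lie near the dim end of the signal.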
